A study of Mus musculus with 10 samples.

Results

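Rosiglitazone for 3 days was compared with vehicle control in differentiated MAP adipocytes. MAP is a line of immortalized adipocyte progenitors of the mouse. ATAC-seq measured chromatin accessibility: a transposase inserts sequencing adapters where DNA is not packed, so open stretches collect reads and appear as peaks. The comparison used 4 of the series' 10 libraries, 2 control libraries (S1 and S2) and 2 libraries treated with rosiglitazone (S9 and S10), over all 122984 peaks of the deposited table. Every group, the control included, had already received 1 uM rosiglitazone with insulin while it differentiated, and 500 uM isobutylmethylxanthine and 1 uM dexamethasone during the first 2 days. The compared treatment was given to differentiated adipocytes at day 7 to 8, and its dose is not stated in the labels. The 2 libraries of forskolin for 3 days (S7 and S8), given to the same kind of cells, are used only to show where rosiglitazone differs. All libraries came from 1 cell line, and the labels do not say that libraries of 1 group are separate cultures, so p-values measure only the spread between these libraries. A peak or gene is called risen or fallen where the adjusted p of edgeR's quasi-likelihood test is below 0.05.

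Rosiglitazone is a thiazolidinedione, a ligand of PPARG, the nuclear receptor that drives adipocyte differentiation. PPARG pairs with a retinoid X receptor and binds DNA at a DR1 element, a direct repeat of AGGTCA with 1 base between the copies, often near sites bound by C/EBP factors. In adipocytes its targets include genes of fatty acid uptake, binding, storage and oxidation, and prolonged rosiglitazone is known to bring out thermogenic genes in white adipocytes, a change called browning.

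The start-site windows below are shown because they lie in called peaks of genes that handle lipid (Cd36, Acsl1, Plin5) or that fell (Cfd, Irf4). The choice was made with their values in view, from list genes, described later, on chromosomes other than 18. It drew on windows of largest rise or fall that overlapped a called peak at or above the median level by at least 150 bases. Each runs from 250 bases before to 50 bases after a RefSeq start on GRCm38.p6, 5′ to 3′ on the gene's strand, and capitals mark AGGTCA on either strand and DR1 matches with at most 2 mismatches. The windows are chr5:17835847-17836146 (minus strand, Cd36), chr8:46490716-46491015 (plus strand, Acsl1), chr17:56117249-56117548 (minus strand, Plin5), chr10:79890603-79890902 (plus strand, Cfd) and chr13:30748983-30749282 (plus strand, Irf4).
Cd36: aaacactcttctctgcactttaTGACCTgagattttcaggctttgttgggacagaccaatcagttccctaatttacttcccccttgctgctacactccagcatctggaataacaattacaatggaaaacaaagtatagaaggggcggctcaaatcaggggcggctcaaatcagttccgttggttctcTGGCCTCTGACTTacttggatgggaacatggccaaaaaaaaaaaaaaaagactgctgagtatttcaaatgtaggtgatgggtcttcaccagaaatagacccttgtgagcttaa
Acsl1: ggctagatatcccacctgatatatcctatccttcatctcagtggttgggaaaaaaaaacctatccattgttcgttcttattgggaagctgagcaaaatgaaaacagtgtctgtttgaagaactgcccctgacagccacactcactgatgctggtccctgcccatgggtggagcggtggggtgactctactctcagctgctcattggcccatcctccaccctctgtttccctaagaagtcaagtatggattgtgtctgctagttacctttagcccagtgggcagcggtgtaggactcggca
Plin5: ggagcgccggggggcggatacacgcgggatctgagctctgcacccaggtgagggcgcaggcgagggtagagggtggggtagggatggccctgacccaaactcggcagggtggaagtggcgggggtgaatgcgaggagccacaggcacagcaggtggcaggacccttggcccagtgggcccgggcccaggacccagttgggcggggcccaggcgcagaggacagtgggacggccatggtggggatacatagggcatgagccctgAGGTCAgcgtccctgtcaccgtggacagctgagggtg
Cfd: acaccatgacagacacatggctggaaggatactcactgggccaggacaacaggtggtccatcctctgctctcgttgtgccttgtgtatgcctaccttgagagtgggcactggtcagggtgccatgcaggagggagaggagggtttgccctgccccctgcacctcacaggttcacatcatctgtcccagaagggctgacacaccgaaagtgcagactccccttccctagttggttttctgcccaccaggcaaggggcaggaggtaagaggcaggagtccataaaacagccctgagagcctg
Irf4: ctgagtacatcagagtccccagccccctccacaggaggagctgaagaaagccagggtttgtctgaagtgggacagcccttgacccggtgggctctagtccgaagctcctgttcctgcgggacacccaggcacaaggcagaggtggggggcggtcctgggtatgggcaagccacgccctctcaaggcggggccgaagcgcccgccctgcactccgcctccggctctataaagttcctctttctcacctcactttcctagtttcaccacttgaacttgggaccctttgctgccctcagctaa

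CD36 takes up fatty acids, ACSL1 joins them to coenzyme A and PLIN5 coats lipid droplets. The peak over the Cd36 window held 6.36 and 7.85 CPM (counts scaled to library size with TMM factors) in the control libraries and 15.3 and 13.5 CPM with rosiglitazone, a log2 fold change of 1.01 (SE 0.20, adjusted p = 0.000316). This window held AGGTCA at bases 23 to 28 and a DR1 match with 2 mismatches at bases 188 to 200, both read on the opposite strand, counting from 1 at the 5′ end. The peak over the Acsl1 window rose more, from 3.43 and 3.30 CPM to 13.6 and 12.3 CPM (log2 fold change 1.94, SE 0.22, adjusted p = 1.01e-09). Its window held neither sequence. The peak over the Plin5 window, too, rose from 3.33 and 2.73 CPM to 6.06 and 7.10 CPM, and its only match was AGGTCA at bases 264 to 269. Summed over all their peaks, neither Acsl1 nor Plin5 was called as a gene. Each has 2 start-site windows, of which 1 is shown. Over the Cfd window, which starts the gene of the secreted protease adipsin, the peak fell from 20.6 and 20.6 CPM to 8.40 and 7.47 CPM (log2 fold change −1.38, SE 0.16, adjusted p = 3.31e-09). Over the Irf4 window, which starts the gene of an interferon regulatory factor, it fell from 9.99 and 8.84 CPM to 4.61 and 5.12 CPM. Neither of these windows held AGGTCA or a DR1 match. Among the other windows of largest rise or fall, which are not printed, the fallen Nfil3 window held AGGTCA at bases 239 to 244. The fallen Prrx1 and the risen Ptger3 and Lcn2 windows held neither. Windows of smaller change were not included.

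The control libraries held 10410233 and 13055443 counts over all peaks, against 14219842 and 16296924 with rosiglitazone, all within the range of 10410233 to 18935287 over the series. Pearson's correlation of log2 CPM over tested peaks was 0.942 between the controls and 0.958 between the rosiglitazone libraries, against 0.917 to 0.931 across the groups. The 10 peaks of more than 10000 counts in any library held 5.88% and 5.10% of the control counts and 3.61% and 3.62% of the rosiglitazone counts, and all 10 were called fallen. Without them 7797 peaks were called, 49.2% of them risen. The labels give the cell type as progenitors, while their protocols describe differentiated adipocytes. All 15 mature adipocyte markers were testable, and the control libraries held 72.4 and 79.2 CPM over the 7 peaks of Adipoq. All 25 adipose progenitor, 10 endothelial and 10 smooth muscle and pericyte genes were testable too, so being testable does not tell cell types apart.

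After 3 days of rosiglitazone 3834 of 118954 tested peaks rose (3.22%) and 3981 fell (3.35%), 7815 in all (6.57%). Among them 2479 rose and 1706 fell by at least 2-fold. The median log2 fold change was 1.20 over risen peaks and −0.91 over fallen peaks, against −0.0042 over all tested peaks. Risen peaks started from lower levels, with a median control level of 2.38 CPM against 8.13 CPM for fallen peaks and 2.42 CPM for uncalled ones, and the median rosiglitazone level was 5.59 CPM for risen and 4.42 CPM for fallen peaks. The median width was 451 bp for risen, 567 bp for fallen and 359 bp for uncalled peaks. The split moved with the scaling. Rises made up 49.1% of the calls, and 68.6% with library sizes alone, where 5452 peaks rose and 2499 fell and the median over all peaks moved to 0.097. DESeq2 called 3639 peaks, and edgeR called 3346 to 4050 with 1 of the 4 libraries left out. In bulk chromatin, more cells with an open site and a wider opening in each cell cannot be told apart.

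**Figure D1:**
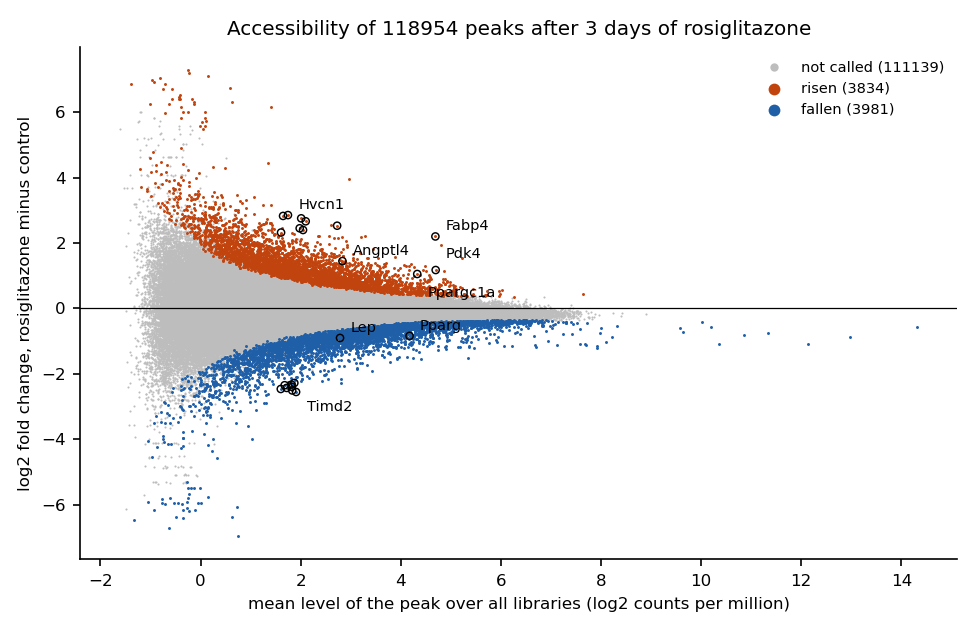
Each point is 1 of the 118954 tested peaks, with its mean level over all 10 libraries in log2 CPM on the x axis and its log2 fold change, rosiglitazone minus control, on the y axis. The 3834 risen peaks are red, the 3981 fallen peaks blue and the others grey, and black circles mark named peaks. The 10 peaks of very high counts lie below 0 at the far right.

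The share of peaks at gene ends differed with the direction of change and with the scaling. Peaks within 1 kb of the first or last annotated base of a protein-coding gene count as gene-end peaks, since the table of gene bounds gave no strand. Such peaks were 6.44% of the risen (95% Wilson interval 5.71 to 7.26, counting error only), 14.9% of the fallen (13.9 to 16.1) and 13.7% of the uncalled peaks. With trended offsets, which level each library against mean abundance, the shares were 10.3%, 10.3% and 13.7%. Peaks over a RefSeq start-site window were 3.23% of the risen, 11.7% of the fallen and 9.64% of the uncalled peaks, and 7.12%, 7.44% and 9.66% with trended offsets. Gene bodies held 50.1% of the risen, 39.7% of the fallen and 45.0% of the uncalled peaks.

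Start-site windows were searched on both strands for short motifs, and their base composition was set beside the shares. AGGTCA on either strand stood in 34 of 124 windows under risen peaks (27.4%), 13.4% of 464 under fallen and 12.1% of 10693 under uncalled peaks, against 16.3% of all 32817 windows. DR1 matches with at most 2 mismatches, which can overlap these AGGTCA matches, stood in 7.26%, 3.23%, 2.79% and 3.86%. The C/EBP palindrome TTGCNNAA stood in 23.4%, 6.68%, 8.96% and 10.8%. TTGCNNNAA, a C/EBP site with 3 bases between, stood in 10.5%, 6.25%, 7.69% and 9.57%. The AP-1 site TGANTCA stood in 11.3%, 6.47%, 7.01% and 7.81%. GGGCGG, the GC box, went the other way, with 20.2%, 73.5%, 62.5% and 35.6%. Median GC content was 51.3%, 67.0%, 60.7% and 52.7% in the same order. Among windows below 52.7% GC, AGGTCA stood in 31.0% of 71 under risen, 28.4% of 74 under fallen and 17.8% of 2150 under uncalled peaks, and TTGCNNAA in 29.6%, 14.9% and 18.2%. DR1 matches turned there, with 7.04% under risen (5 windows), 9.46% under fallen (7 windows) and 4.19% under uncalled peaks. TTGCNNNAA and TGANTCA turned as well, with 12.7%, 21.6% and 15.7% for the first and 12.7%, 17.6% and 15.3% for the second. At or above 52.7% GC, DR1 matches stood in 7.55% of 53 under risen (4 windows), 2.05% of 390 under fallen and 2.43% of 8543 under uncalled peaks. AGGTCA stood there in 22.6%, 10.5% and 10.7%, and TTGCNNAA in 15.1%, 5.13% and 6.64%. TTGCNNNAA stood there in 7.55%, 3.33% and 5.68%, and TGANTCA in 9.43%, 4.36% and 4.92%. These are shares of windows, with no test, and a match is not a bound site. CREB, TEAD, STAT and EBF motifs were searched as well, and their shares are not given here.

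For a value per gene, counts were summed over the peaks assigned to each protein-coding gene. By this measure 422 of 17006 tested genes rose (2.48%) and 857 fell (5.04%), 1279 in all (7.52%), with a median log2 fold change of −0.053 over all genes. Both rosiglitazone libraries lay above both controls in 19.96% and below both in 35.96% of all tested genes, and in all 422 risen and all 857 fallen genes, so this separation adds nothing to a call. Fallen genes had higher control levels, with a median of 85.9 CPM against 20.1 CPM for risen genes. This split turned with the scaling: 1150 genes rose and 433 fell with library sizes alone, where the median over all genes was 0.048, and 758 rose and 699 fell with trended offsets. Without S2 124 rose and 144 fell, and without S9 103 rose and 125 fell, without S1 152 rose and 397 fell, and without S10 179 rose and 368 fell. Leaving out 1 library leaves a lone library, assumed to vary like those of the other groups.

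Among the lipid storage genes known as PPARG targets, 9 of 24 rose and none fell, with a median log2 fold change of 0.22. Of their 179 peaks, 54 rose (30.2%) and 4 fell (2.23%). For this and every later list, the shares over all tested genes were 2.48% risen and 5.04% fallen. Over all tested peaks they were 3.22% and 3.35%. With trended offsets 14 of the 24 rose, and 7 rose without S1 or without S10. FABP4, which carries fatty acids inside adipocytes, stood at 141 and 143 CPM in the controls and 325 and 321 CPM with rosiglitazone, summed over 10 peaks. Both treated libraries lay far above both controls, a log2 fold change of 1.19 (SE 0.061, adjusted p = 3.47e-11). At the Cd36 locus the sums were 60.2 and 64.6 CPM in the controls and 122 and 117 CPM with rosiglitazone (log2 fold change 0.93, SE 0.088, adjusted p = 2.67e-06). Again the groups did not overlap, as in all 422 risen genes. Both treated libraries lay above both controls in 19.96% of all tested genes.

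**Figure D2:**
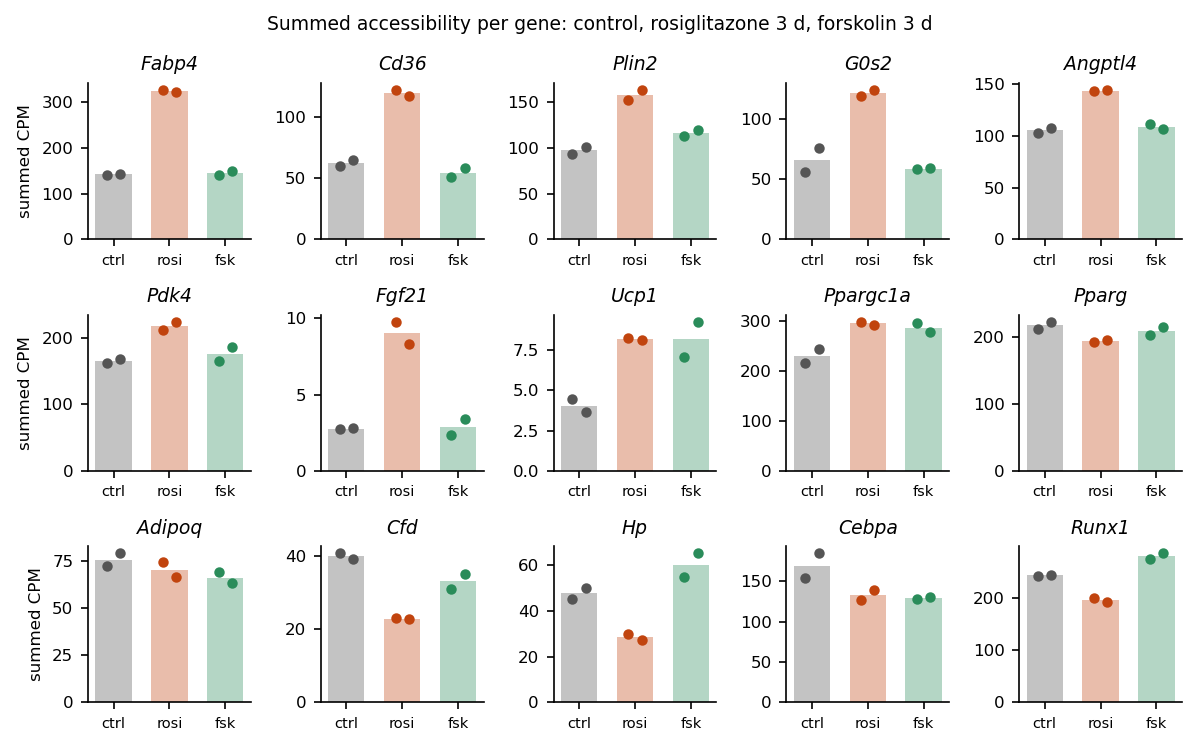
Summed CPM per gene in the 2 control libraries (grey), the 2 rosiglitazone libraries (red) and the 2 libraries of forskolin for 3 days (green), with points for libraries and bars for means. Fabp4, Cd36, Plin2, G0s2 and Fgf21 stand higher with rosiglitazone than in either other group, Cfd and Hp stand lower, and Ucp1 and Ppargc1a are near the forskolin level.

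The other risen members of this list had log2 fold changes from 0.34 to 3.39. CPT1B, which brings fatty acids into mitochondria for oxidation, had 1 peak, at 0.505 and 0.661 CPM in the controls and 6.19 and 6.36 CPM with rosiglitazone (log2 fold change 3.39, SE 0.43), and this low start makes the fold large. Fabp3, a fatty acid binding protein of muscle and brown fat, went from 13.5 and 9.99 CPM to 25.1 and 24.4 CPM. Agpat2, an enzyme of triglyceride synthesis, went from 81.5 and 81.3 CPM to 119 and 123 CPM. Angptl4, a secreted inhibitor of lipoprotein lipase, went from 103 and 108 CPM to 144 and 144 CPM (log2 fold change 0.45), and Pdk4, a kinase that holds back glucose oxidation, from 162 and 169 CPM to 211 and 224 CPM (0.40). The lipid droplet genes Cidec (log2 fold change 0.49) and Plin4 (0.34) also rose, but each call was lost without S1 or without S10 (adjusted p from 0.082 to 0.129 for Cidec and 0.068 to 0.095 for Plin4).

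The peaks around Fabp4 rose nearly together. Of 10 peaks, 9 rose, and the remaining one had a log2 fold change of 0.79 (adjusted p = 0.051). The most changed lay just outside the gene at chr3:10202195-10203293, with 11.9 and 13.05 CPM in the controls and 58.6 and 56.7 CPM with rosiglitazone (log2 fold change 2.20, SE 0.14, adjusted p = 1.19e-21). Beside it, at chr3:10201101-10202027, a second peak went from 13.9 and 16.3 CPM to 57.5 and 58.6 CPM. The gene-end peak of highest level, at chr3:10208198-10208782, changed less, from 38.4 and 37.2 CPM to 58.6 and 57.0 CPM (log2 fold change 0.61). The other gene-end peaks, at chr3:10204815-10205203 and chr3:10207427-10207799, rose by 1.06 and 1.31 on the log2 scale. At Cd36 10 of 24 peaks rose and none fell, and the peak at chr5:17836422-17836740, in the gene and next to the window printed above, went from 1.31 and 1.57 CPM to 7.501 and 6.605 CPM.

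**Figure D3:**
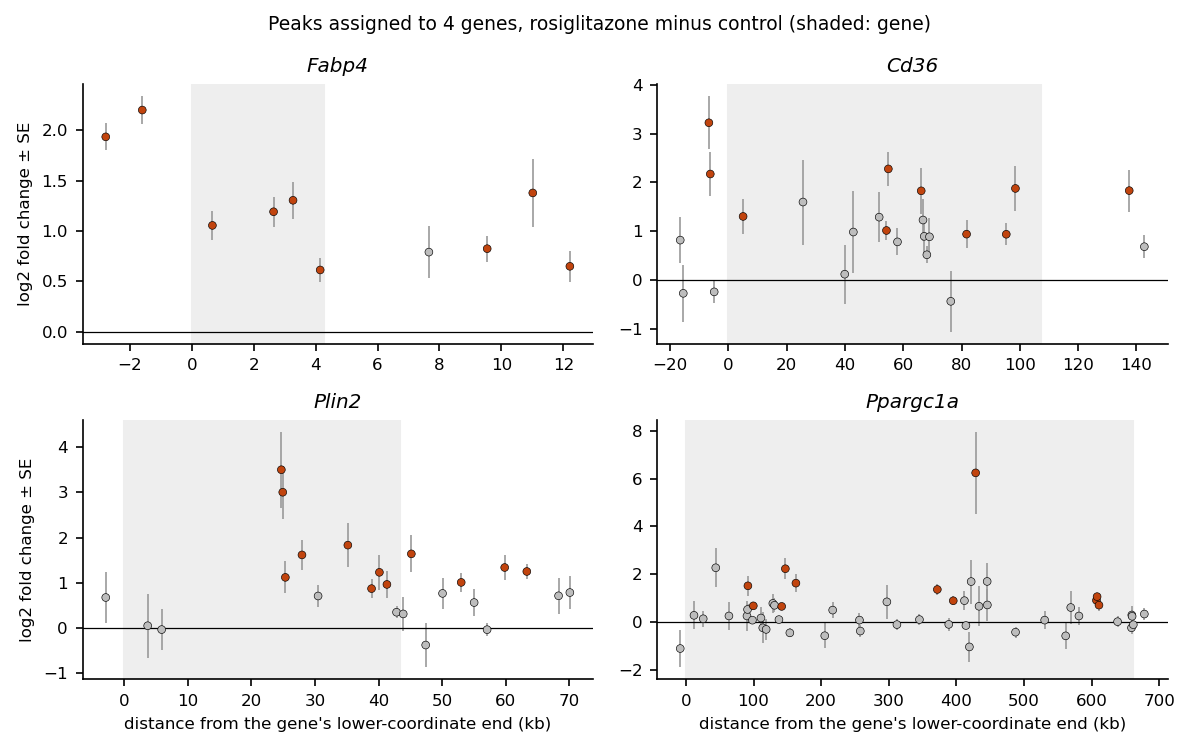
Each point is 1 tested peak assigned to Fabp4, Cd36, Plin2 or Ppargc1a, with its distance from the lower-coordinate end of the gene in kb on the x axis and its log2 fold change on the y axis. Bars are ± SE, shading marks the gene, red points rose and grey points were not called. No peak of these 4 genes fell, and 9 of 10, 10 of 24, 12 of 24 and 11 of 52 peaks rose.

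PLIN2, a coat protein of lipid droplets, had the most risen peaks of any named gene, 12 of 24, and its sum went from 93.4 and 101 CPM to 152 and 162 CPM (log2 fold change 0.70, SE 0.070, adjusted p = 4.60e-06). Its gene-end peak of highest level, at chr4:86669208-86670263, held 28.4 and 32.0 CPM in the controls and 37.2 and 40.0 CPM with rosiglitazone. This log2 fold change of 0.35 was not called (adjusted p = 0.083). With gene-end peaks alone Plin2 was not called. Chst11, a sulfotransferase of chondroitin, had 9 risen and 2 fallen peaks of 54 and rose slightly (log2 fold change 0.24), with a value of −0.26 over its gene-end peaks alone.

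Pparg, the gene of the receptor itself, was not called. Its 24 peaks held 212 and 223 CPM in the controls and 193 and 195 CPM with rosiglitazone, a log2 fold change of −0.16 that missed the threshold (SE 0.059, adjusted p = 0.094). None of its peaks rose and 1 fell, at chr6:115492921-115494122, 2517 bp beyond the annotated end of the gene, from 19.99 and 18.9 CPM to 10.9 and 10.8 CPM (log2 fold change −0.84, adjusted p = 8.04e-05). Of the 20 receptors and cofactors listed with it, 3 rose and 2 fell. Ppara, the related receptor of fatty acid oxidation, rose from 262 and 274 CPM to 322 and 346 CPM (log2 fold change 0.32, SE 0.056, adjusted p = 0.00143). The coactivator genes Ppargc1a (0.36) and Ppargc1b (0.35) rose, and Cited2 (−0.35), a coregulator that binds p300 family proteins, fell. The call of Cited2 was lost without S2 or S9, and that of Ppargc1b without S1, S9 or S10, with −0.24 over its gene-end peaks alone.

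Several markers of adipocyte identity showed no call. Adiponectin's gene Adipoq stood at 72.4 and 79.2 CPM in the controls and 74.6 and 66.7 CPM with rosiglitazone, and these values overlapped. Lpl, which encodes lipoprotein lipase, went from 203 and 214 CPM to 243 and 236 CPM (log2 fold change 0.20, adjusted p = 0.058), and Plin1, the main droplet coat of adipocytes, from 40.1 and 48.1 CPM to 55.3 and 54.5 CPM (0.31, adjusted p = 0.070). Both passed the threshold with library sizes alone and with trended offsets. Retn (log2 fold change −0.033, which turned to 0.068 with library sizes alone) and Pck1 (−0.57, over 1 peak) were not called. Over the whole list of 15 mature adipocyte markers, 4 rose (Fabp4, Cd36, Cidec and Plin4), 2 fell (Cfd and Cebpa) and the median was −0.047. Of their 134 peaks 27 rose (20.1%) and 7 fell (5.22%), against 3.22% and 3.35% of all tested peaks. An unadjusted p below 0.05 was found for 11 of the 15, against 4005 of all 17006 tested genes.

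Fatty acid oxidation genes moved one way where they were called. Of 23 tested, 6 rose and none fell, with a median log2 fold change of 0.16, and 22 of their 120 peaks rose (18.3%). Cpt1b is counted both here and in the lipid storage list, so the 2 lists are not separate. Acot1, an acyl-CoA thioesterase, went from 13.1 and 16.3 CPM to 24.2 and 24.8 CPM (log2 fold change 0.73, SE 0.13, adjusted p = 0.00211). Hadhb of the mitochondrial trifunctional protein (0.54) and Decr1 (0.40) also rose. So did Vldlr (0.42), which the list holds although it encodes a lipoprotein receptor. The calls of Vldlr and Decr1 were lost without any 1 of the 4 libraries (adjusted p from 0.056 to 0.165), and that of Hadhb without S9 (0.056). Only 2 of the 23 rose without S9. With library sizes alone 11 of the 23 rose. Among 27 genes of oxidative phosphorylation and mitochondria none was called by edgeR with TMM factors and all libraries or by DESeq2. Of their 124 peaks 17 rose (13.7%) and 6 fell (4.84%), against 3.22% and 3.35% of all tested peaks. The transcription factor gene Nrf1 alone held 8 of these risen peaks, with 2 fallen, among its 24 peaks. Summed, Nrf1 was not called (log2 fold change 0.22, adjusted p = 0.060), and its value was −0.39 over gene-end peaks alone. An unadjusted p below 0.05 was found for 6 of the 27 genes, against 4005 of all 17006 tested genes. With edgeR 3 rose with library sizes alone, 2 with trended offsets and 1 without S10, and with the compared groups alone 3 rose and 2 fell.

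Among 24 thermogenic and beige genes 4 rose and none fell, with a median log2 fold change of 0.14. With library sizes alone 8 rose, and without S2 2 rose. UCP1, the uncoupling protein of brown fat, had 3 peaks with 4.44 and 3.63 CPM in the controls and 8.26 and 8.15 CPM with rosiglitazone (log2 fold change 1.03, SE 0.22, adjusted p = 0.00691). The call was lost without S2 or S9 (adjusted p from 0.066 to 0.134), and the level stayed low. Its peak of smallest adjusted p, at chr8:83287735-83288017, 2331 bp outside the gene, went from 0.505 and 0.991 CPM to 4.34 and 2.90 CPM. Fgf21, a hormone of the fasting and thermogenic response, went from 2.73 and 2.81 CPM to 9.77 and 8.33 CPM (log2 fold change 1.70, SE 0.27, adjusted p = 0.000495).

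Ppargc1a, the coactivator of mitochondrial genes, had 11 risen and no fallen peaks of 52 and went from 216 and 244 CPM to 297 and 292 CPM (SE of its log2 fold change 0.060, adjusted p = 0.000941). Its peak of smallest adjusted p lay inside the gene, at chr5:52062094-52062759, and went from 11.1 and 15.9 CPM to 28.9 and 27.7 CPM (log2 fold change 1.05). Other called peaks of the gene had larger fold changes from lower levels, such as 2.22 at chr5:51601146-51601479. The gene-end peak held 16.2 and 18.3 CPM in the controls and 15.3 and 16.4 CPM with rosiglitazone. Over gene-end peaks alone the log2 fold change was −0.12. Elovl3, an elongase of brown fat, rose (0.52) in all fits but those without S2, without S10 or with gene-end peaks alone. Cidea, another brown fat gene, was not called (log2 fold change 0.071), with −0.090 without S9 and 1.05 over its gene-end peak alone (adjusted p = 0.067 in the peak fit).

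In the list of lipolysis and adrenergic genes 3 of 20 rose and none fell. G0S2, an inhibitor of adipose triglyceride lipase, went from 56.3 and 75.6 CPM to 119 and 124 CPM (log2 fold change 0.87, SE 0.11, adjusted p = 5.45e-05). Ptger3, a prostaglandin receptor that lowers cAMP, went from 6.16 and 4.29 CPM to 8.33 and 11.5 CPM (0.95) and lost its call without S2 or S10, and Prkar2b (0.21), a regulatory subunit of protein kinase A, lost it without any 1 library. The receptor gene Adrb3 was not called (0.14, adjusted p = 0.517). In lipogenesis, Insig1, which restrains sterol synthesis, rose (0.32, adjusted p = 0.00045) and Scd1, the stearoyl-CoA desaturase, fell (−0.20), but Scd1 lost its call with library sizes alone, with trended offsets and without S2, S9 or S10. The other 18 of these 20 genes were not called, where 2.48% of all tested genes rose and 5.04% fell. With trended offsets, as with library sizes alone, 5 of the 20 rose and none fell.

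**Figure D4:**
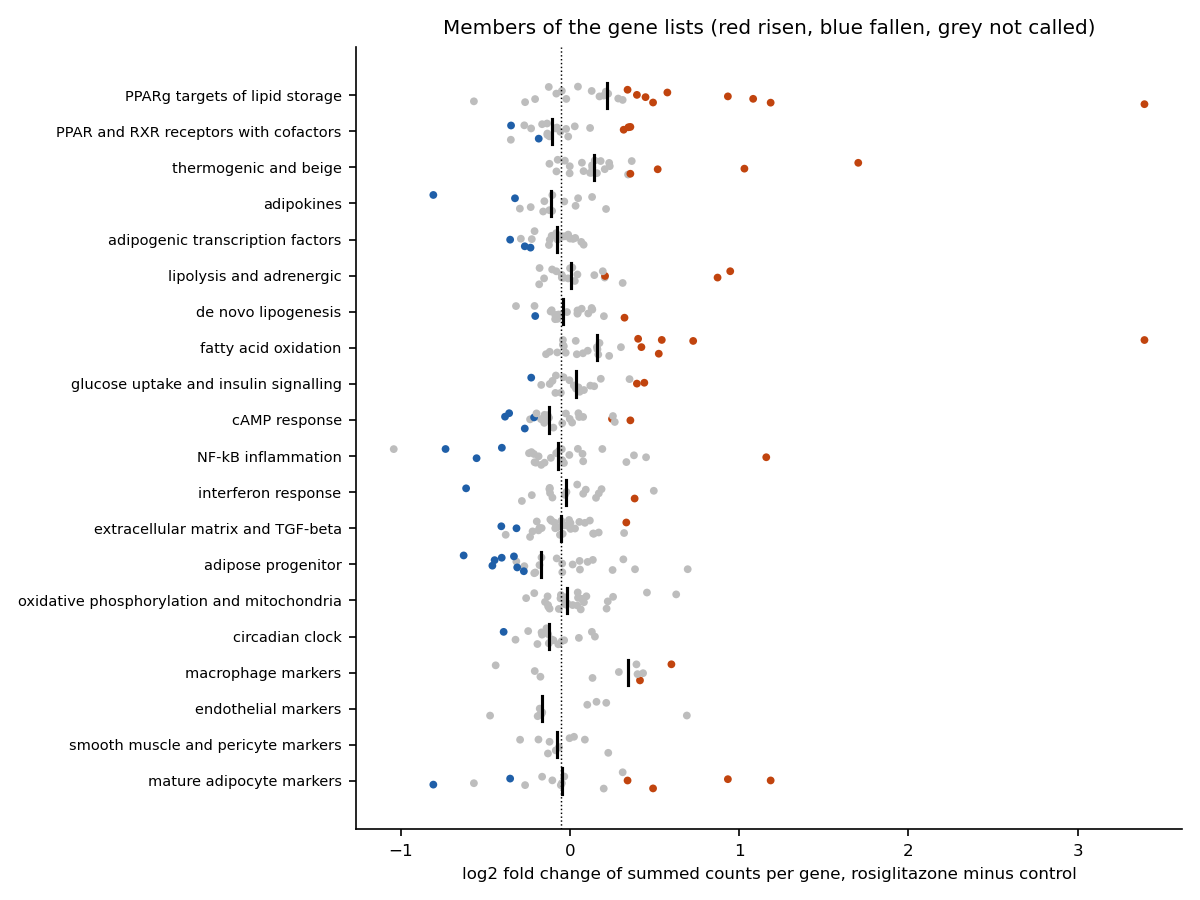
Each point is 1 gene of a list, with the log2 fold change of its summed counts, rosiglitazone minus control, on the x axis. Black bars are list medians, the dotted line is the median over all 17006 genes (−0.053), and red, blue and grey points rose, fell or were not called. The called genes of the PPARG target, thermogenic and fatty acid oxidation lists lie to the right, and those of the progenitor list lie to the left.

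Of 14 adipokine genes none rose and 2 fell. Adipsin's gene Cfd, whose start-site window stands above, went from 40.8 and 39.3 CPM to 23.0 and 22.8 CPM over 3 peaks (log2 fold change −0.81, SE 0.12, adjusted p = 0.000241). This call held in all 13 alternative fits. Nampt, an enzyme of NAD synthesis that is also secreted, fell by 0.32 on the log2 scale, a call lost without S2 or S9. Leptin's gene Lep was not called over its 10 peaks (−0.15). Its gene-end peak at chr6:29073526-29074436 fell from 10.5 and 12.2 CPM to 6.61 and 5.62 CPM (−0.90, adjusted p = 0.00268), a call lost without S2 or S10. This peak overlapped no RefSeq start-site window.

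Hp, which encodes the acute phase protein haptoglobin, fell from 45.2 and 50.05 CPM to 29.9 and 27.5 CPM (log2 fold change −0.73, SE 0.11, adjusted p = 0.00029). It was 1 of 28 NF-kB and inflammation genes, of which 3 fell and 1 rose. The others that fell were Cxcl10, a chemokine gene (−0.55), and Il6 (−0.40), and both calls were lost with library sizes alone and without any 1 library. Lcn2, which encodes lipocalin 2, rose over its 1 peak from 2.42 and 2.31 CPM to 4.82 and 5.74 CPM (1.16), a call lost without S1, S2 or S10. Of 18 interferon response genes, Irf4 fell (−0.61) and the chemokine gene Cxcl9 rose (0.38), beside 5.04% fallen and 2.48% risen of all tested genes. Irf4 lost its call with library sizes alone and without S1, S2 or S9, and Cxcl9 without any 1 library. Of 10 macrophage markers tested in this culture of 1 cell line, 2 rose, Csf1r (0.60) and Cd68 (0.41), and none fell. Both calls were lost without any 1 library and with gene-end peaks alone, and that of Cd68 also with DESeq2. Adgre1 and C1qa were not tested. The summed level of the markers was 184 to 188 CPM in the controls and 195 to 201 CPM with rosiglitazone. Their part in the result was not tested.

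Among 21 transcription factor genes of adipogenesis 3 fell and none rose. Cebpa, a factor that works with PPARG, went from 154 and 185 CPM to 126 and 139 CPM (log2 fold change −0.35, SE 0.083, adjusted p = 0.0112). The call was lost without S2 or S9. Klf9 (−0.23) and Atf3 (−0.27) lost theirs with library sizes alone and with trended offsets. With trended offsets 1 of the 21 fell, and without S2 or without S9 none did. Members of AP-1 in the cAMP response list also fell. Fosl2 went from 243 and 265 CPM to 192 and 205 CPM (−0.36, SE 0.064, adjusted p = 0.00162), and Junb from 203 and 209 CPM to 151 and 164 CPM (−0.38). Both calls were lost without S2 or S9 (adjusted p from 0.057 to 0.093). Of the 26 genes in that list 4 fell and 2 rose, Ppargc1a and the phosphodiesterase gene Pde4d (0.25), and Dusp1 (−0.21) and Atf3 also fell. Dusp1 lost its call without any 1 library, and Pde4d without S2 or S9.

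Adipose progenitor genes fell where they were called. Of 25, 7 fell and none rose, with a median of −0.17, and 19 of their 312 peaks fell (6.09%) and 5 rose (1.60%). Runx1, a transcription factor of stem and progenitor cells, had 4 fallen and 2 risen peaks of 39 and went from 242 and 245 CPM to 200 and 192 CPM (log2 fold change −0.31, SE 0.056, adjusted p = 0.00171). It was the only one of the 7 called without each of the 4 libraries. Mfap5, a microfibril protein gene (−0.63), Sox9 (−0.46), Wnt10b (−0.44), Ly6a, which encodes the surface marker SCA1 (−0.40), Id2 (−0.33) and Id3 (−0.27) also fell. With trended offsets 7 fell and 1 rose, and without S2 or without S10 2 fell.

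In the lists of matrix and glucose genes the counts depended on the scaling. Of 31 matrix and TGF-beta genes, Col6a1, a collagen VI chain, rose (0.33, adjusted p = 0.00252; lost without S9), with 6 of 20 peaks risen, and Thbs1, thrombospondin 1 (−0.40), and Lox, a collagen crosslinking enzyme (−0.32), fell. Thbs1 lost its call without S2 or S9 and Lox without any 1 library. With trended offsets, as with library sizes alone, 5 matrix genes rose and 1 fell. With TMM factors 12 of the 31 had an unadjusted p below 0.05, against 4005 of all 17006 tested genes. Of 21 glucose and insulin genes, Pdk4 and Trib3, a pseudokinase that binds AKT (0.44, lost without any 1 library), rose and Irs1 (−0.23) fell, the last lost with library sizes alone, with trended offsets and without S2, S9 or S10. With either of these scalings 5 of the 21 rose and none fell, and with TMM factors 26 of their 304 peaks rose (8.55%). Of 17 clock genes only Nfil3, a repressor of clock output, was called. It fell from 154 and 172 CPM to 122 and 126 CPM (−0.39, SE 0.077, adjusted p = 0.00327), a call lost without S2 or S9. That 1 of 17 stands near the 5.04% of all tested genes that fell. Of 10 endothelial and 10 smooth muscle markers edgeR with TMM factors and all libraries and DESeq2 called none. An unadjusted p below 0.05 was found for 2 and 1 of them, beside the 4005 of 17006 over all genes. With library sizes alone, and with the compared groups alone, 1 endothelial marker rose, and 1 smooth muscle marker fell with the compared groups alone and without S1.

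**Figure D5:**
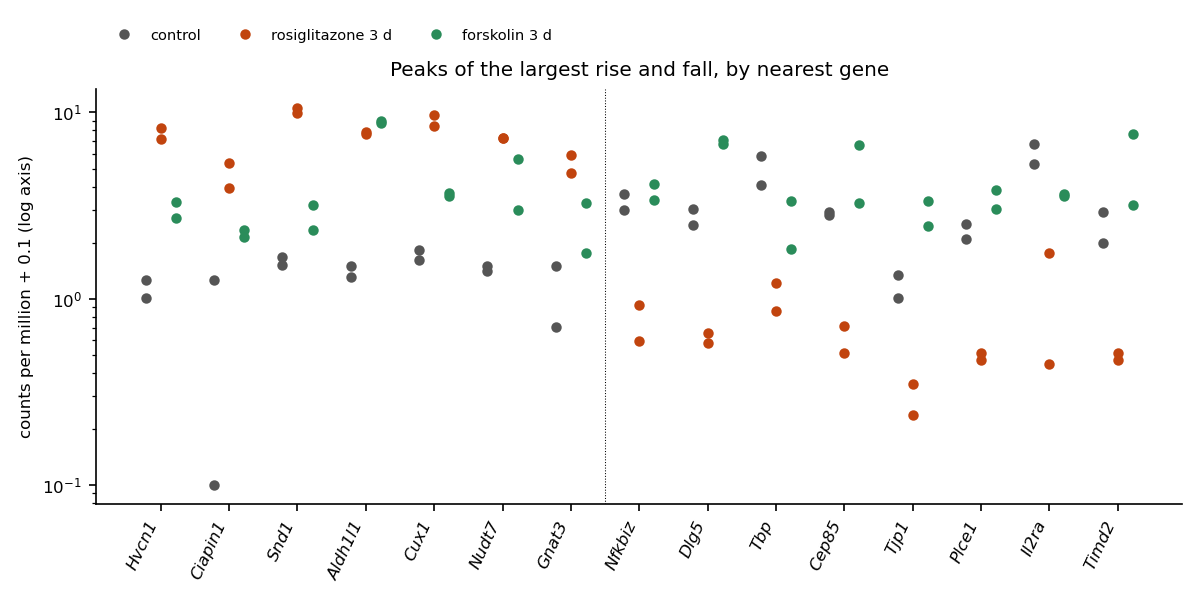
CPM plus 0.1, on a log axis, in the 2 control (grey), 2 rosiglitazone (red) and 2 forskolin libraries (green) for 7 of the 8 risen and the 8 fallen peaks of largest change at or above the median level, labelled by nearest gene. Red points lie above grey points on the left of the dotted line and below them on the right, which the choice of these peaks fixes.

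Among called peaks at or above the median level, the 16 of largest change were named, at most 1 per gene. Of these, 13 lay in gene bodies and none at a gene end. The 8 risen ones, among them those nearest to Hvcn1, Ciapin1, Snd1, Aldh1l1, Cux1, Nudt7 and Gnat3, had log2 fold changes from 2.32 to 2.86. Peaks of lower level reached larger fold changes, such as 3.22 at chr5:17774858-17775201 by Cd36, from 0.404 and 0.578 CPM to 5.92 and 3.52 CPM. The peak in Snd1, at chr6:28919238-28919788, went from 1.41 and 1.57 CPM to 9.84 and 10.5 CPM (adjusted p = 6.14e-10). The peak in Nudt7, a peroxisomal coenzyme A hydrolase gene, went from 1.31 and 1.40 CPM to 7.23 and 7.22 CPM. Gnat3 lies beside Cd36, and its peak at chr5:17938214-17938910 went from 0.606 and 1.40 CPM to 4.61 and 5.80 CPM. The 8 fallen ones, nearest to Timd2, Il2ra, Plce1, Tjp1, Cep85, Tbp, Dlg5 and Nfkbiz, had log2 fold changes from −2.55 to −2.28. The peak in Il2ra, the gene of an interleukin 2 receptor chain, went from 6.66 and 5.203 CPM to 0.344 and 1.67 CPM (adjusted p = 5.50e-07). The call at Tjp1 was lost without S2 or S9.

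Among called genes outside the lists, picked with their values in view, Acaa1b and Gpat3 also belong to lipid metabolism. Acaa1b, a peroxisomal thiolase gene, went from 33.9 and 34.3 CPM to 62.1 and 60.0 CPM (log2 fold change 0.84, SE 0.093, adjusted p = 1.56e-05). Gpat3, an acyltransferase gene of triglyceride synthesis, had 6 risen of 18 peaks and went from 88.9 and 97.5 CPM to 138 and 142 CPM (0.59, SE 0.073). Gnat3 summed to 32.0 and 33.2 CPM in the controls and 65.4 and 63.9 CPM with rosiglitazone, and assigning peaks by nearness cannot separate it from Cd36. Over all genes, 114 had at least 3 risen and no fallen peaks, and 108 had at least 3 fallen and no risen peaks.

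The 5 genes with most fallen peaks had summed log2 fold changes from −0.30 to −0.094. Babam2 had 10 fallen and 1 risen of 60 peaks and fell from 330 and 336 CPM to 272 and 269 CPM (log2 fold change −0.30, SE 0.052, adjusted p = 0.00121). Foxp1, a forkhead factor gene, had 9 fallen and 3 risen of 62 peaks (−0.19, adjusted p = 0.059). Ltbp1 (−0.14) had 7 fallen and 1 risen of 55 peaks. Slit3 (−0.094, which turned to 0.0075 with library sizes alone) had 7 fallen and 5 risen of 72 peaks. Neither gene was called. Sfi1 had 10 fallen of 24 peaks (−0.23), a call lost without any 1 library, and its values are uncertain, since near-identical copies of this gene can share reads.

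Against forskolin for 3 days, rosiglitazone gave higher counts in 10496 peaks (8.82%) and lower counts in 15374 (12.9%), 25870 in all (21.7%). By gene, 1450 were higher (8.53%) and 1461 lower (8.59%), 2911 in all (17.1%), with a median log2 difference of 0.042. Of the 24 lipid storage targets 14 were higher and none lower with rosiglitazone, with a median difference of 0.32. Fabp4 stood at 141 and 149 CPM with forskolin, a log2 difference of 1.16 (adjusted p = 4.26e-11), and Cd36 at 50.8 and 58.2 CPM (1.13, adjusted p = 4.82e-08). Fgf21 stood at 2.36 and 3.40 CPM with forskolin, again below both rosiglitazone libraries (1.67, adjusted p = 8.20e-05). Of 23 fatty acid oxidation genes 8 were higher with rosiglitazone and none lower, and of 20 lipogenesis genes 7 were higher and 1 lower. Of 28 NF-kB and inflammation genes 1 was higher and 7 were lower.

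Ucp1, Ppargc1a and Cebpa were not called in the direct comparison, and other genes were. Ucp1 stood at 7.08 and 9.26 CPM with forskolin, a log2 difference of 0.019 (SE 0.19), and Ppargc1a at 296 and 277 CPM, a difference of 0.042 (SE 0.059); neither was called, which does not show that the treatments act alike. Cebpa was at 128 and 130 CPM with forskolin (0.039). Runx1, at 274 and 285 CPM with forskolin, was lower with rosiglitazone (−0.51, adjusted p = 1.66e-06), as were Hp (−1.06), Junb (−0.53) and Fosl2 (−0.45). Adrb3, at 10.97 and 12.2 CPM with forskolin and 29.8 and 29.0 CPM with rosiglitazone, was higher with rosiglitazone (1.35). The log2 fold changes of forskolin against the same 2 controls were 1.01 for Ucp1, 0.32 for Ppargc1a, 0.026 for Fabp4, −0.20 for Cd36 and −1.21 for Adrb3, and those of rosiglitazone were 1.03, 0.36, 1.19, 0.93 and 0.14; the 2 sets of values share the controls.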

How the data were processed

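Nuclei of differentiated MAP adipocytes were sorted by Hoechst stain, and 10000 nuclei per library were tagmented and amplified for 12 cycles, per the labels' protocols. The authors deposited 1 table of raw counts per peak for 10 libraries; the submitters' processing notes name Bowtie2, MACS2, featureCounts, fastp, Picard, SAMtools and deepTools and the build GRCm38/mm10. The sources used here do not say if MACS2 ran on single or pooled libraries, or how duplicates were treated. Duplicates that remain, or peaks called from some groups only, could shift counts between libraries. Columns named S1 to S10 were matched to groups by name.

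Raw counts were fitted with edgeR 4.0.16 in R 4.3.3 (filterByExpr, TMM factors, robust quasi-likelihood, all 10 libraries and 5 groups in 1 fit, no covariates), with Benjamini-Hochberg adjustment over all tested peaks or genes. No low-count filter beyond filterByExpr was used. Peaks went to a protein-coding gene with an end within 1 kb, else to the gene holding them, else to the nearest end within 50 kb (RefSeq, GRCm38.p6). Printed CPM are TMM-scaled. The median biological coefficient of variation was 0.163. Total counts of 10410233 to 18935287 give single peaks of a few CPM few counts. Alternatives were other scalings (DESeq2 size factors, library sizes, trended offsets), DESeq2 1.42.0, no filter, 2 groups only, other peak assignments, and each library left out. The scripts were tested on simulated data.

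Named were, by rule, the 8 peaks with the largest rise and the 8 with the largest fall at or above the median level, at most 1 per gene, whose groups did not overlap; the 2 smallest adjusted p of each list; the 5 genes with most risen and the 5 with most fallen peaks; and 16 adipocyte genes with their gene-end peak and their peak of smallest p. Other called list members and the genes outside the lists were named after their values were seen, and the motif search of start-site windows and the DR1 tolerance were also chosen then. The members and lists were chosen with earlier results of these data known. A few genes and peaks that these rules take are not reported here.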

Additional observations from a re-analysis of the deposited data

How the results depend on the processing

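Against the control, 7815 peaks were called, 3639 by DESeq2 and 3346 to 4050 with 1 library left out, and 49.1% of calls were rises, 68.6% with library sizes alone. Of genes, 1279 were called, 2449 with the compared groups alone, 204 with gene-end and 146 with start-site peaks alone (fewer counts), and 228 to 549 with 1 library left out; rises were 33.0%, 72.6% with library sizes alone, 52.0% with trended offsets, and 27.7% to 46.3% with 1 library left out. Against forskolin, 25870 peaks were called, 16645 by DESeq2 and 16213 to 21539 with 1 library left out. Gene-end shares of risen and fallen peaks were 6.44% and 14.9%, with library sizes alone 8.03% and 13.01%, with trended offsets 10.3% and 10.3%, and with a window of 500 bp 4.17% and 12.9% (uncalled 11.2%). Start-site shares were 3.23% and 11.7%, 4.86% and 9.84% with library sizes alone, and 7.12% and 7.44% with trended offsets. The median log2 fold change over genes was −0.053, and 0.048 with library sizes alone, −0.068 with DESeq2 size factors and −0.0072 with trended offsets.

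Of 34 called named genes, 8 were called under all their alternatives (Angptl4, Cd36, Cfd, Cpt1b, Fabp4, Fgf21, G0s2 and Hp) and 2 changed sign; of 29 called named peaks, 24 were called under all and none changed sign. Calls of Acot1, Agpat2, Fabp3, Insig1, Pdk4 and Ppara were lost with gene-end peaks alone. So were, among others, those of Cebpa, Runx1, Nampt, Id2, Id3, Junb, Nfil3, Col6a1, Scd1, Hadhb, Cited2, Plin4, Ptger3, Trib3 and Babam2. Calls of Cebpa, Col6a1, Pdk4 and Ppara, among others, were also lost with assignment limited to 10 kb. The sign turned for Chst11 (−0.26 with gene-end and −0.26 with start-site peaks alone), Nrf1 (−0.39 and −0.41) and Ppargc1a (−0.12 and −0.26). It also turned for Slit3 (0.027 and 0.014, and 0.0075 with library sizes alone), Cidea (−0.090 without S9, 0.21 without S10, 1.05 with its gene-end peak alone), Retn (0.068 with library sizes alone, 0.013 without S1, 0.023 without S9, against −0.10 without S10) and the Retn peak (0.029 with library sizes alone, 0.0042 with trended offsets). Causes were not tested. No paired analysis was possible because the table's columns carry none of the replicate numbers of the labels. Motifs in whole peaks were not run, since no genome was used here. Low counts limit peaks of a few CPM.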
